A study of Mus musculus with 35 samples.

Results

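The 6 loci whose distal chromatin closed strongly when mouse embryonic stem cells left naive pluripotency are described here: Foxd3, Nrp2, S1pr1, Tnfrsf21, Galnt18 and Nedd9. They were chosen on the measured fall in accessibility of the parental lines, from D0 to D2 or from D0 to D1, so parental values describe the choice and carry no test. The unit is a 2-kb tile of the genome (GRCm38), and the members are the 587 tiles from 40 kb before to 40 kb after each gene, of 1362779 tiles in all. Of these, 74 were among the 141548 tiles tested genome-wide, as accessible enough or as holding an end of a protein-coding gene. They were 15 of 42 at Foxd3, 32 of 99 at Nrp2, 4 of 43 at S1pr1, 12 of 77 at Tnfrsf21, 4 of 196 at Galnt18 and 7 of 130 at Nedd9. The other 513 are accounted for near the end.

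The assay was ATAC-seq: open DNA is cut by a transposase, which leaves sequencing adapters at the cuts. Naive cells in 2i and Lif, a medium that blocks differentiation signals, were the D0 state, and epiblast-like cells 1 day (D1) and 2 days (D2) into the formative transition were made from them. There were 4 lines: TET_KO, without Tet1, Tet2 and Tet3, its parent TET_WT, DNMT_KO, without Dnmt1, Dnmt3a and Dnmt3b, and its parent DNMT_WT. Each line and day was a group of 3 libraries, except TET_KO at D2, which held replicates 1 and 3. The series title names turnover of DNA methylation at the exit from pluripotency as its subject. Each genotype is 1 line, and nothing states that replicates were separate cultures, so p-values measure the spread between these libraries, which may be technical.

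TET enzymes oxidise 5-methylcytosine and open a route to demethylation, while DNMT enzymes write and maintain the mark. Naive cells hold little DNA methylation and gain it on the way to the formative state, as enhancers bound by naive transcription factors are shut down and formative enhancers open. The members are a forkhead transcription factor that acts at enhancers in this transition (Foxd3), 3 cell-surface receptors (Nrp2 for class 3 semaphorins and vascular endothelial growth factors, S1pr1 for the lipid sphingosine-1-phosphate, and Tnfrsf21, a death-domain receptor also called DR6), a member of the polypeptide GalNAc transferases of the Golgi (Galnt18), and a Cas-family scaffold of integrin signalling (Nedd9).

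Library totals ran from 4172670 to 23686796 reads, and the median tested tile held 4 to 38 of them. D1 libraries were processed unlike the rest: 5.62 to 46.8% of their reads were mitochondrial against none at D0 and D2, and deposited medians rose by 0.36 to 0.62 log2 units from D0 to D1. Values are therefore given after quantile normalisation. For D1 against D0, for D2 against D1 and for the share of a change reached at D1, the day and the processing cannot be told apart. Of 257 tested tiles around 10 naive pluripotency genes 28 were lower and 0 higher at D2 in TET_KO, and 35 and 0 in DNMT_KO, with none called at Klf4 or Tcl1. Genome-wide shares, for these lists too, are 0.983% lower and 0.197% higher in TET_KO, and 2.02% and 0.492% in DNMT_KO. Tiles around 8 formative genes numbered 4 higher and 1 lower of 149 in TET_KO, and 5 and 1 in DNMT_KO. In DNMT_KO 2 of the higher tiles were at Dnmt3a and the lower one was at Dnmt3b, genes which that line lacks. None was called at Fgf5, Otx2 or Zic2 in either knockout. Primitive endoderm genes had 0 of 48 tiles called at D2 in either knockout and fibroblast genes 0 of 47, while trophoblast genes had 1 of 44 lower in TET_KO and 3 in DNMT_KO.

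The sequence at the gene starts is shown with each CG, the site of DNA methylation, in capitals. The knockouts lack the enzymes that write and maintain DNA methylation (DNMT_KO) or that oxidise it (TET_KO). Sequence of the distal tiles was not analysed here, so no CG content is compared between starts and distal tiles. RefSeq (GRCm38.p6) gave a promoter for 4 of the 6 genes. Each run is the 250 bases before the start, 5′ to 3′ on the gene's strand: chr4:99656049-99656298 (+) for Foxd3, chr1:62703067-62703316 (+) for Nrp2, chr17:43016305-43016554 (+) for Tnfrsf21 and chr13:41359002-41359251 (-) for Nedd9.
Foxd3: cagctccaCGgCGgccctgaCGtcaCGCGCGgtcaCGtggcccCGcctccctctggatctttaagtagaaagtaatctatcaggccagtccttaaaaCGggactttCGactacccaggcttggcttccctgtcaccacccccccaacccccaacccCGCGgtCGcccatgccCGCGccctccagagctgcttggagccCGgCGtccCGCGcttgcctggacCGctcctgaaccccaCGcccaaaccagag
Nrp2: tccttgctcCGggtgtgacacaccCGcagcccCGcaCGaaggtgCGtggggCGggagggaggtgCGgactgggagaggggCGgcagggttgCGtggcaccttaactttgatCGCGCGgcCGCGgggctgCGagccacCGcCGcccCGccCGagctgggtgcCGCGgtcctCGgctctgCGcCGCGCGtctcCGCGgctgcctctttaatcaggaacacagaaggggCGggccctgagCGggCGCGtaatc
Tnfrsf21: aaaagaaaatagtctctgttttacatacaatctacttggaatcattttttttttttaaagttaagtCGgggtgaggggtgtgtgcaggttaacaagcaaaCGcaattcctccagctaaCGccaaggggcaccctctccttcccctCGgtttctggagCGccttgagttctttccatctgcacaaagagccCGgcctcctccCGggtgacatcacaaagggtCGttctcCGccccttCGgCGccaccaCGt
Nedd9: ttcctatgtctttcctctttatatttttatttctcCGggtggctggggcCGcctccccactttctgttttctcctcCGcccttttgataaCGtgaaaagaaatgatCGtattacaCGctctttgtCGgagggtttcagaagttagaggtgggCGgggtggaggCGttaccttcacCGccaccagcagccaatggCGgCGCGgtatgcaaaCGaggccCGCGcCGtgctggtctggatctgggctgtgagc
They held 21, 32, 12 and 17 CG, against a median of 6 over 32851 RefSeq promoters of the same length. As many or more CG were found in 16.4% of those promoters for Foxd3, 4.58% for Nrp2, 33.5% for Tnfrsf21 and 23.5% for Nedd9.

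No change was called at the tiles holding these starts in the knockouts. From D0 to D2 the Foxd3 start tile moved by 0.56 ± 0.33 (log2 difference ± SE) in TET_KO and -0.44 ± 0.30 in DNMT_KO, and that of Nrp2 by 0.37 ± 0.31 and 0.04 ± 0.28. The other start tiles moved by 0.53 ± 0.38 and -0.86 ± 0.34 (S1pr1), -0.18 ± 0.33 and 0.18 ± 0.29 (Tnfrsf21), 0.38 ± 0.36 and -0.28 ± 0.32 (Galnt18), and 0.64 ± 0.34 and -0.64 ± 0.30 (Nedd9). None of the 12 differences passed limma's 2-sided test with Benjamini-Hochberg adjustment over all tested tiles, the smallest adjusted p being 0.187 (S1pr1 in DNMT_KO). In the parents, as a description, the S1pr1 start tile was at -1.18 ± 0.34 in TET_WT and -0.35 ± 0.34 in DNMT_WT, and those of Foxd3 and Nedd9 were at 0.91 ± 0.30 and 0.97 ± 0.30 in DNMT_WT. The other parental values ran from -0.31 to 0.50. For S1pr1 and Galnt18 the start was taken as the gene end with the higher accessibility.

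Closing tiles were those at least 2-fold lower at D2 than at D0 (a log2 difference of -1 or lower) in both parents. There were 12 of 74, and genome-wide 2378 tiles, or 1.68%, met that rule, which used the same contrast as the choice of the loci. None of the 74 opened by as much in both parents. Closing lay 14.7 to 100 kb from the start, in 6 cases inside the gene's span. The tiles just inside the rule were those of Foxd3 at chr4:99634001-99636000 (-1.37 in TET_WT and -1.12 in DNMT_WT) and chr4:99670001-99672000 (-1.34 and -1.01). Just outside were Nrp2 tiles at chr1:62738001-62740000 (-1.52 and -0.94) and chr1:62776001-62778000 (-0.97 and -0.82). The lead tile of a locus, below, is the one with the lowest mean parental change. In the knockouts 8 (TET_KO) and 9 (DNMT_KO) of these 12 tiles were called lower at D2, against 28.5% and 43.0% of the 2378. Over all tested tiles these shares were 0.983% and 2.02%.

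**Figure D1:**
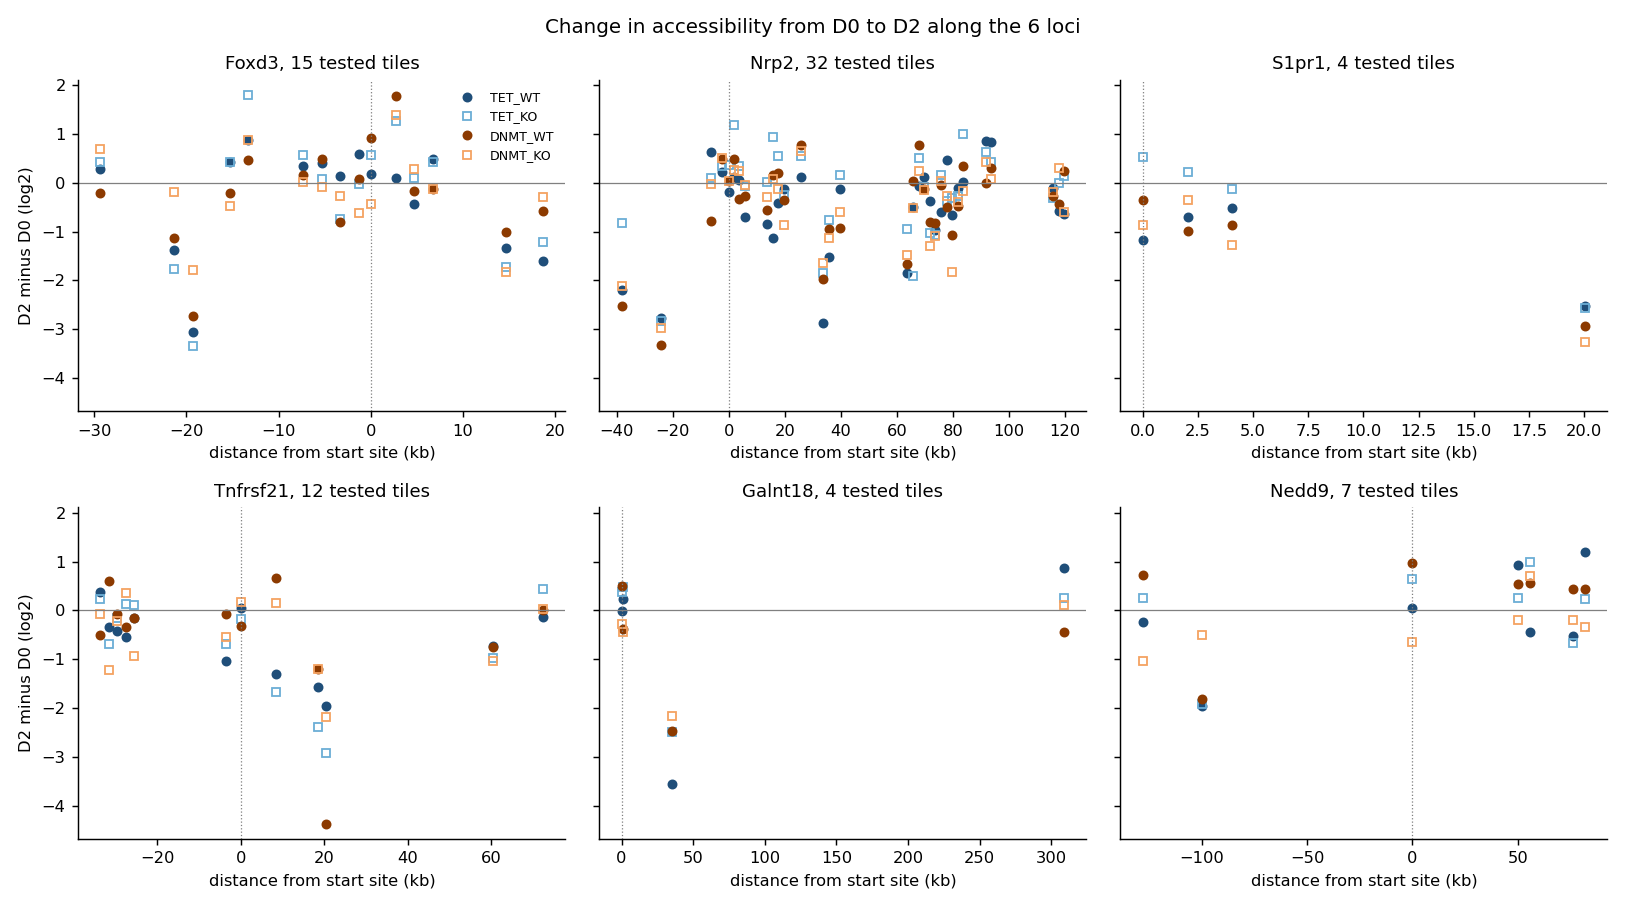
Log2 difference of D2 minus D0 (vertical axis) of each tested tile against its distance from the start site in kb, one panel per locus, filled circles for the parental lines and open squares for the knockouts. Start tiles lie between -1.18 and 0.97, and the lead tiles, 19.3 to 100 kb away, reach -1.81 to -4.36 in the parents.

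Foxd3 had 3 closing tiles on both sides of the gene (chr4:99656299-99658671). Its lead tile, chr4:99636001-99638000, lay 19.3 kb upstream of the start and overlapped no annotated gene. In TET_WT the Foxd3 tile gave normalised log2 RPKM of 1.29, 1.5 and 1.46 at D0, 0.75, 1.22 and 0.80 at D1, and -3.0, -0.62 and -1.26 at D2. The DNMT_WT libraries held 1.74, 1.40 and 1.06, then -0.07, -0.11 and -0.10, then -1.19, -0.88 and -1.93. After normalisation, most of the loss in TET_WT thus came after D1, and DNMT_WT stood midway at D1. In TET_KO the Foxd3 tile went from 1.11, 2.17 and 2.29 to -0.56, 0.30 and -1.07 at D1 and -1.35 and -1.61 at D2. DNMT_KO libraries held 1.59, 1.39 and 1.54, then -0.24, 0.17 and 0.74, then 0.03, -0.66 and -0.19. In both knockouts every D1 and D2 library was below every D0 library.

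The Foxd3 lead fell by 3.34 ± 0.47 from D0 to D2 in TET_KO (adjusted p = 3.8e-06, both D2 libraries below all 3 of D0), beside -3.05 ± 0.42 in its parent. In DNMT_KO it fell by 1.78 ± 0.42 (adjusted p = 0.00637, 3 of 3 libraries), beside -2.73 ± 0.42 in its parent. The DNMT_KO call was lost without its D2 replicate 2 (-1.59, adjusted p = 0.0559) and when libraries were thinned to 831507 reads in tested tiles (adjusted p = 0.0828). By D1 TET_KO stood at -2.3 ± 0.42 (adjusted p = 0.00175) and DNMT_KO stood at -1.28 ± 0.42 (adjusted p = 0.121). Of the weaker closing tiles, the one 14.7 kb downstream of the start fell by 1.82 ± 0.43 in DNMT_KO (adjusted p = 0.00722), a call lost without D0 replicate 3 (-1.65, adjusted p = 0.0639) or D2 replicate 3 (-1.54, adjusted p = 0.0734) and on thinned reads (0.152). In TET_KO that tile gave -1.72 ± 0.48 (adjusted p = 0.0537). The tile next to the lead, 21.3 kb upstream, gave -1.76 ± 0.56 in TET_KO and -0.20 ± 0.50 in DNMT_KO, and neither passed the test.

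A Foxd3 tile 13.3 kb upstream of the start, chr4:99642001-99644000, opened. In TET_KO its libraries went from -1.05, -0.22 and -0.56 at D0 to 0.97, 1.64 and 1.38 at D1 and 0.88 and 1.5 at D2. DNMT_KO gave -0.74, -0.16 and -1.12, then 0.56, 0.58 and 1.32, then 0.60, 0.41 and -0.41. At D1 all knockout libraries were above those of D0, and at D2 1 library of DNMT_KO overlapped them. The rise in TET_KO was 1.94 ± 0.35 at D1 (adjusted p = 0.00138) and 1.80 ± 0.39 at D2 (adjusted p = 0.00432), the second call being lost without D2 replicate 3 (1.49, adjusted p = 0.194). On thinned reads neither call held (adjusted p of 0.112 and 0.501). DNMT_KO rose by 1.5 ± 0.35 at D1 (adjusted p = 0.0129, lost without D0 replicate 1, D0 replicate 3 or D1 replicate 3) and stood at 0.88 ± 0.35 at D2 (adjusted p = 0.196). The DNMT_KO call at D1 was also lost by limma voom on recovered reads, in a fit of only the groups compared, and with no filter on tiles. The parents were at 1.30 ± 0.35 and 0.94 ± 0.35 at D1, and at 0.87 ± 0.35 and 0.47 ± 0.35 at D2, in TET_WT and DNMT_WT. At D0 TET_KO stood 0.74 ± 0.35 below its parent and DNMT_KO 0.96 ± 0.35 below, by estimate ± SE with no test.

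**Figure D2:**
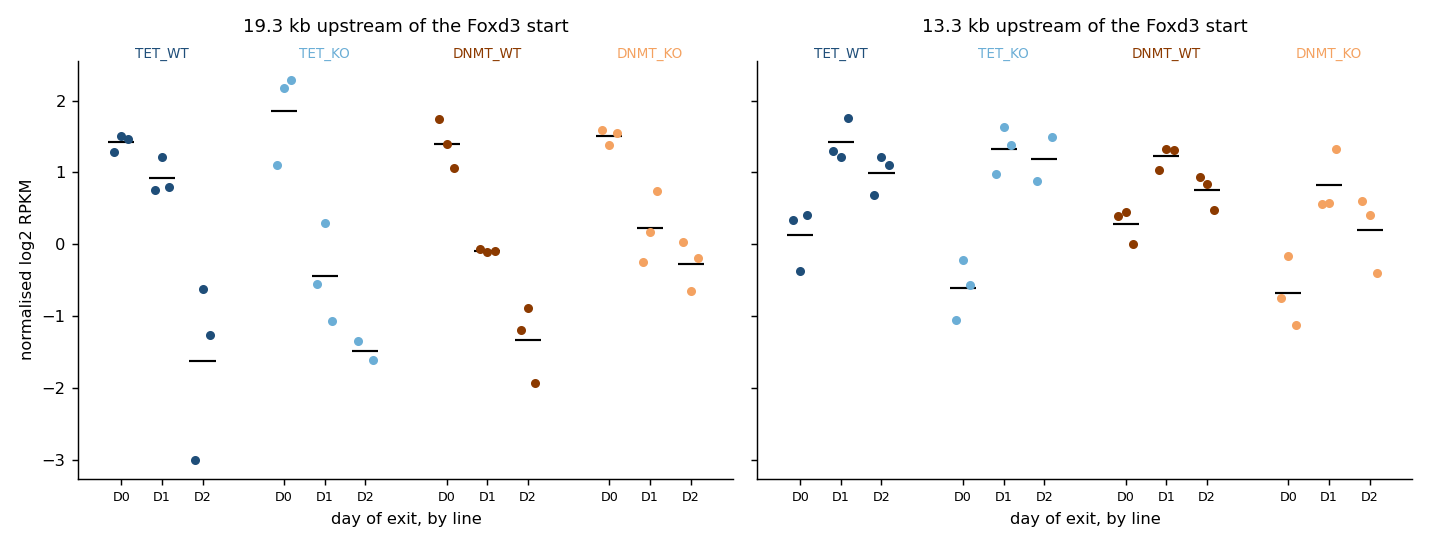
Normalised log2 RPKM per library (points) and group mean (bars) at D0, D1 and D2 in each line for the 2 Foxd3 tiles that moved in opposite directions. At the tile 19.3 kb upstream the D2 points lie below the D0 points in each line, while at the tile 13.3 kb upstream the D1 points of both knockouts lie above those of D0.

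Nrp2 (chr1:62703317-62818692) held 4 closing tiles, more than any other member, and 32 of the 74 tested tiles. The Nrp2 lead, chr1:62678001-62680000, lay 24.3 kb upstream of the start and overlapped no annotated gene. In TET_WT the Nrp2 tile gave 1.76, 1.59 and 2.42 at D0, -1.53, -0.39 and -0.02 at D1, and -0.40, -0.30 and -1.81 at D2. For DNMT_WT the values were 2.48, 2.79 and 2.26, then -0.07, -0.88 and -0.33, then -0.88, -0.58 and -0.97. In both parents the D1 libraries lay below all of D0 and overlapped those of D2. In TET_KO the Nrp2 tile went from 1.39, 1.46 and 1.74 to 0.25, -2.47 and 0.27 at D1, and -0.98 and -1.61 at D2. DNMT_KO went from 1.94, 2.54 and 2.31 to -1.81, -1.19 and -0.88, and then -0.62, 0.13 and -1.61. No D1 or D2 library of a knockout overlapped its D0 libraries. In summed reads the tile held 107 at D0 and 13 at D2 in TET_KO, and 150 and 21 in DNMT_KO.

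The Nrp2 lead fell by 2.82 ± 0.52 in TET_KO (adjusted p = 0.000602) and fell by 2.97 ± 0.47 in DNMT_KO (adjusted p = 1.73e-05) from D0 to D2. The call held whichever library of these groups was left out. By D1 it stood at -3.56 ± 0.47 in DNMT_KO (adjusted p = 1.63e-06) and -2.18 ± 0.47 in TET_KO (adjusted p = 0.0105). The TET_KO call at D1 was lost without D1 replicate 2, the library at -2.47 (-1.26, adjusted p = 0.318), without D0 replicate 3 (-2.07, adjusted p = 0.0718), and on thinned reads (0.101) or the values as deposited (0.0523).

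Inside the Nrp2 gene, 33.7 kb from the start, the closing tile chr1:62736001-62738000 fell by 1.85 ± 0.44 in TET_KO (adjusted p = 0.012) and fell by 1.65 ± 0.39 in DNMT_KO (adjusted p = 0.00698) at D2. Its libraries went from 1.31, 1.38 and 1.77 to -0.48 and -0.26 in TET_KO, and from 1.46, 0.96 and 1.5 to -0.62, -0.23 and -0.19 in DNMT_KO, with no overlap. The TET_KO call was lost without D0 replicate 3, D2 replicate 1 or D2 replicate 3 (adjusted p of 0.0749, 0.223 and 0.0799), and the DNMT_KO call without D0 replicate 3 (0.0501). Both were lost on thinned reads (0.131 and 0.0563) and with no filter on tiles. Of the other Nrp2 closing tiles, the one 38.3 kb upstream fell by 2.11 ± 0.48 in DNMT_KO (adjusted p = 0.00452, 0.0719 on thinned reads) and gave -0.83 ± 0.54 in TET_KO (adjusted p = 0.681). The one 63.7 kb inside fell by 1.48 ± 0.36 in DNMT_KO (adjusted p = 0.0103) and gave -0.94 ± 0.41 in TET_KO (adjusted p = 0.378). That DNMT_KO call was lost without D0 replicate 2, on thinned reads (0.124), by limma voom on recovered reads and with no filter on tiles. The difference between the falls of both knockouts was tested and not called at either tile (1.28 ± 0.72 and 0.54 ± 0.55, adjusted p of 0.785 and 0.922).

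A pair of Nrp2 tiles outside the closing rule was also called in a knockout. The tile chr1:62782001-62784000, 79.7 kb from the start, fell by 1.82 ± 0.33 in DNMT_KO at D2 (adjusted p = 0.000164) from 1.99, 1.71 and 1.54 to -0.26, -0.41 and 0.44. It fell by 1.32 ± 0.33 at D1 (adjusted p = 0.0224), a call lost without any of 4 single libraries. That D1 call was also lost as deposited, by limma voom on recovered reads, on thinned reads and in a fit of only the groups compared. In TET_KO the tile gave -0.31 ± 0.36 at D2, and the knockouts' falls differed by 1.51 ± 0.49 (adjusted p = 0.469, not called). The tile beside the 33.7-kb one, chr1:62738001-62740000, fell in TET_KO at D1 by 1.62 ± 0.39 (adjusted p = 0.028), a call lost whichever of the 6 libraries was left out. This call was also lost as deposited, by limma voom on recovered reads, on thinned reads and with no filter on tiles. Untested Nrp2 tiles held 0.694 RPM (reads scaled to library total) per tile at D0 in TET_KO and 1.1 in DNMT_KO. Their parents also differed, at 0.821 in TET_WT and 1.03 in DNMT_WT.

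S1pr1 (chr3:115710433-115715055) had 1 closing tile, chr3:115694001-115696000, 14.4 kb beyond the gene end opposite its start and overlapping no annotated gene. In TET_WT the S1pr1 tile gave 0.96, 1.05 and 2.08 at D0, -0.71, -0.57 and -0.88 at D1, and -1.61, -0.82 and -1.05 at D2. For DNMT_WT it was at 2.13, 1.92 and 1.37, then -1.61, -1.53 and -2.06, then -0.88, -1.81 and -0.66. The parental loss was present at D1. In TET_KO the S1pr1 tile went from 1.26, 1.23 and 1.51 to -1.26, -0.63 and -1.07, and to -1.35 and -1.13 at D2. DNMT_KO libraries went from 1.59, 1.49 and 1.92 to -0.24, -1.65 and -2.56, and to -1.69, -0.91 and -2.17. The lowest of these, D1 replicate 3 of DNMT_KO, had 0 reads in the tile, so its value is that of an empty tile. No knockout library of D1 or D2 overlapped those of D0.

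The S1pr1 tile fell by 2.57 ± 0.53 from D0 to D2 in TET_KO (adjusted p = 0.00229) and fell by 3.25 ± 0.47 in DNMT_KO (adjusted p = 2.75e-06), beside -2.53 ± 0.47 and -2.92 ± 0.47 in their parents. At D1 the values were -2.32 ± 0.47 (adjusted p = 0.00555) and -3.15 ± 0.47 (adjusted p = 3.42e-05). The TET_KO call at D2 was lost without D2 replicate 1 (-2.46, adjusted p = 0.0774), and on thinned reads the TET_KO calls at D2 and D1 were both lost (adjusted p of 0.0555 and 0.391). At this locus the untested tiles also held fewer reads after D0: from 0.989 to 0.72 RPM per tile at D2 in TET_KO, from 1.04 to 0.628 in DNMT_KO, and from 1.04 to 0.678 and from 1.1 to 0.696 in TET_WT and DNMT_WT.

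Tnfrsf21 (chr17:43016555-43089188) had a pair of adjoining closing tiles inside the gene. The lead, chr17:43036001-43038000, lay 20.4 kb from the start. In TET_WT the Tnfrsf21 tile gave 2.25, 1.90 and 2.19 at D0, 0.02, 0.38 and 0.73 at D1, and -0.16, 0.61 and 0.04 at D2. The DNMT_WT values were 2.05, 2.16 and 1.5, then 0.86, 0.17 and 0.29, then -2.84, -1.81 and -2.73. The parents thus ended apart: DNMT_WT, with 1 or 2 reads per library at D2, had the lowest D2 minus D0 value of all 141548 tested tiles, and TET_WT stopped near 0. In TET_KO the Tnfrsf21 tile went from 1.55, 1.77 and 1.77 to -0.39, -0.63 and 0.89, and to -1.81 and -0.64. DNMT_KO went from 1.99, 1.67 and 1.98 to -0.10, 1.35 and 0.86, and to 0.15, -0.66 and -0.41. Every D1 and D2 library of a knockout was below its D0 libraries.

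From D0 to D2 the Tnfrsf21 lead fell by 2.92 ± 0.43 in TET_KO (adjusted p = 9.54e-06) and fell by 2.18 ± 0.38 in DNMT_KO (adjusted p = 0.000113), and both calls held whichever library of these groups was left out. Their parents were at -1.95 ± 0.38 and -4.36 ± 0.38. The D2 level of DNMT_KO was 2.16 ± 0.38 above its parent and that of TET_KO 1.39 ± 0.43 below its own, as estimates with no test, since parental values chose the locus. The neighbouring tile, 18.4 kb from the start, fell by 2.39 ± 0.59 in TET_KO (adjusted p = 0.018) and gave -1.20 ± 0.53 in DNMT_KO (adjusted p = 0.27). Its TET_KO call was lost without D0 replicate 1, D0 replicate 3 or D2 replicate 1 (adjusted p of 0.109, 0.0699 and 0.734). It was also lost on thinned reads (0.0531), on the values as deposited and by limma voom on recovered reads. At D1 the lead was called in TET_KO alone of the knockouts (-1.74 ± 0.38, adjusted p = 0.0128, lost without any of 4 single libraries), and DNMT_KO stood at -1.17 ± 0.38 (adjusted p = 0.121). The TET_KO call at D1 was also lost on the values as deposited, on thinned reads and with no filter on tiles.

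The Galnt18 closing tile, chr7:111744001-111746000, lay inside the gene (chr7:111471656-111780067), 35.1 kb from the start. In TET_WT the Galnt18 tile gave 1.14, 0.99 and 1.83 at D0, -1.53, -0.81 and -1.40 at D1, and -1.89, -2.39 and -2.40 at D2. DNMT_WT gave 1.41, 0.95 and 1.01, then -2.12, -0.11 and -1.40, then -1.56, -1.81 and -0.66. In both parents the D1 libraries were all below those of D0. In TET_KO the Galnt18 tile went from 1.21, 1.23 and 1.01 to -1.55, -0.15 and -1.56, and to -2.41 and -0.26. DNMT_KO went from 0.44, 1.17 and 1.54 to 0.38, -0.56 and -1.48, and to -0.82, -0.91 and -1.61. The D2 libraries were below all of D0 in both knockouts, but those of TET_KO were far apart from each other.

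The Galnt18 tile fell by 2.48 ± 0.58 in TET_KO (adjusted p = 0.0115) and fell by 2.17 ± 0.52 in DNMT_KO (adjusted p = 0.00823). The TET_KO call was lost without D2 replicate 1, which leaves the library at -0.26 (-1.40, adjusted p = 0.775), and the DNMT_KO call without D0 replicate 3 (-1.92, adjusted p = 0.0762) or D2 replicate 3 (-1.92, adjusted p = 0.0639). The TET_KO call was also lost with a replicate block (adjusted p = 0.0537), on the values as deposited (0.0612) and on thinned reads (0.0659), and the DNMT_KO call on thinned reads (0.101). At D1 TET_KO stood at -2.24 ± 0.52 (adjusted p = 0.0231, lost without any of 5 single libraries), and DNMT_KO gave -1.60 ± 0.52 (adjusted p = 0.121). The TET_KO call at D1 was also lost on the values as deposited and with no filter on tiles.

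Nedd9 had the smallest mean parental change of the leads from D0 to D2 and was the only lead not called in both knockouts at D2. Its tile, chr13:41458001-41460000, lay inside the gene's longest span (chr13:41309916-41487362) and 100 kb upstream of the start shown above. In TET_WT the Nedd9 tile gave 0.96, 0.74 and 0.71 at D0, -2.13, -1.40 and -2.80 at D1, and -1.19, -0.62 and -1.61 at D2. DNMT_WT held 0.40, 0.30 and 0.88, then -0.90, -0.11 and -0.33, then -1.56, -0.88 and -1.40. Accessibility was lowest at D1 in TET_WT and at D2 in DNMT_WT. In TET_KO the Nedd9 tile went from 1.39, 1.02 and 1.28 to -0.56, -0.28 and 0.13, and to -0.98 and -0.39. DNMT_KO went from -0.53, 0.81 and 0.56 to -1.05, -1.19 and 0.26, and to -0.41, -0.05 and -0.19. The TET_KO days did not overlap D0, and in DNMT_KO the D0 library at -0.53 lay below all 3 of D2.

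In TET_KO the Nedd9 change of -1.91 ± 0.52 passed the test narrowly (adjusted p = 0.0393). The call was lost without any 1 of its 5 libraries (adjusted p of 0.0773 to 0.525). It was also lost on the values as deposited (0.0614), on thinned reads (0.406) and with no filter on tiles. DNMT_KO gave -0.50 ± 0.46 (adjusted p = 0.714), beside -1.81 ± 0.46 in its parent. The falls in both knockouts differed by -1.41 ± 0.69 (adjusted p = 0.727, not called). The tile held 7 to 16 reads per D0 library of DNMT_KO.

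**Figure D3:**
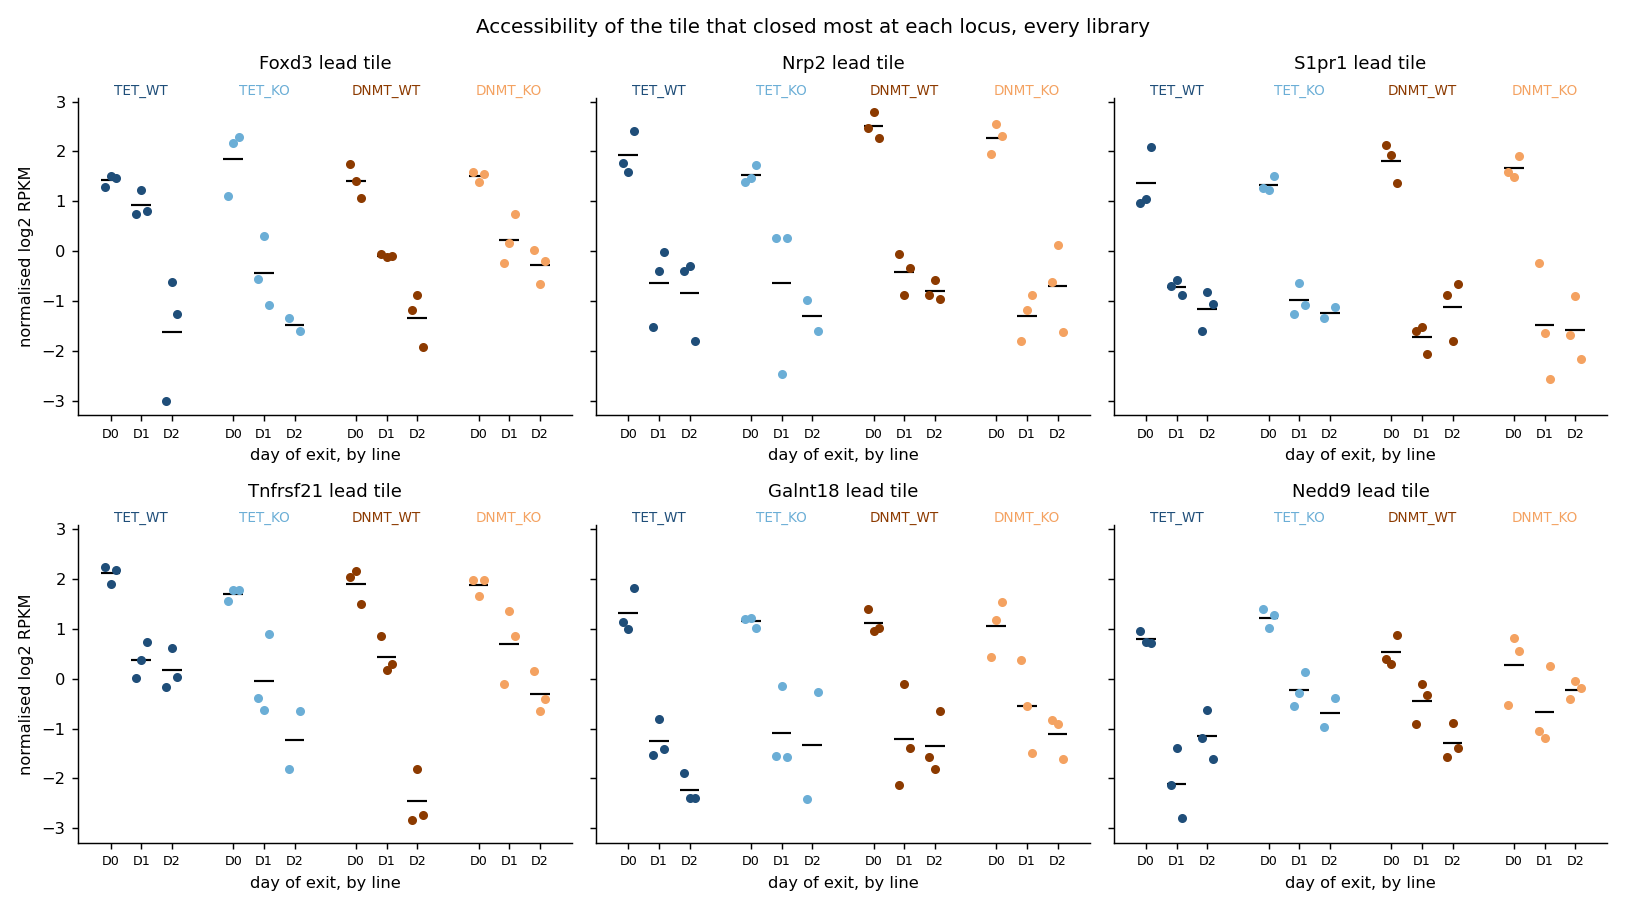
Normalised log2 RPKM of each lead tile in every library (points) with the group mean (bars), by line and day. Apart from Nedd9 in DNMT_KO, the D2 points lie below the D0 points in each line.

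Counted over the 74 tested member tiles, 8 fell and 1 rose from D0 to D2 in TET_KO, against 0.983% and 0.197% of all tested tiles. In DNMT_KO 10 fell and 0 rose, against 2.02% and 0.492%. Without adjustment, 17 were lower and 3 higher in TET_KO at a p under 0.05, and 20 and 2 in DNMT_KO. Over all tested tiles 5.91% were lower and 4.02% higher by that measure in TET_KO, and 7.55% and 6.08% in DNMT_KO. Of the 12 closing tiles 8 fell in TET_KO and 9 in DNMT_KO, and among all 2378 tiles that closed in both parents 678 (28.5%) and 1023 (43.0%) fell. The members were chosen for large parental changes, so these shares are not matched on size. The median change of the 12 was -2.15 in TET_KO and -1.80 in DNMT_KO, beside -1.34 and -1.39 over the 2378 and 0.04 over all tested tiles in each. The D2 libraries were all below those of D0 at 11 of the 12 in TET_KO and at 10 in DNMT_KO, an arrangement seen in 13.7% and 9.24% of all tested tiles and in 78.4% and 71.8% of the 2378. Without D2 replicate 1 of TET_KO its calls at D2 numbered 4 in place of 9.

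The exits of both knockouts were compared directly, as D2 minus D0 in TET_KO less that in DNMT_KO. None of 74 member tiles was called by limma, against 0.00212% of all tiles, with 8 at an unadjusted p under 0.05 (4 in each direction, against 6.8% of all tiles) and 0 by limma voom on recovered reads. The largest of these at a closing tile were at Foxd3, the lead (-1.56 ± 0.63, adjusted p = 0.614) and the tile beside it (-1.56 ± 0.76, adjusted p = 0.722).

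In TET_KO 6 fell and 1 rose from D0 to D1, against 0.303% and 0.16% of all tiles, and in DNMT_KO 4 fell and 1 rose, against 0.675% and 0.35%. Of the 12 closing tiles 5 and 3 were called, and all D1 libraries lay below those of D0 at 9 and 8, as in 7.71% and 6.95% of all tiles and 56.4% and 48.9% of the 2378. Of the 2378, 10.9% were called lower at D1 in TET_KO and 15.6% in DNMT_KO. The TET_KO count at D1 was 3 without D0 replicate 3 and 4 without D0 replicate 2, D1 replicate 1 or D1 replicate 2. That of DNMT_KO was 3 without D0 replicate 1, D0 replicate 3 or D1 replicate 3. Comparisons of D1 and of D2 share their D0 libraries, so they are set side by side and not taken as support for each other. From D1 to D2, 0 of 74 tiles were called in TET_KO by limma (0.0982% of all tiles lower and 0.00212% higher), with 7 lower and 2 higher at an unadjusted p under 0.05 (4% and 2.58% of all tiles) and 0 by limma voom. In DNMT_KO 0 rose and 1 fell (0.268% and 0.535% of all tiles), the Tnfrsf21 tile chr17:42984001-42986000, which held 0.03, 1.88 and 0.26 at D1 and -3.20, -0.41 and -0.63 at D2 (-2.14 ± 0.57, adjusted p = 0.0467). The number called there was 0 without D1 replicate 2 or D1 replicate 3 of DNMT_KO and 0 under 6 of the alternatives. Among those 6, the 20-kb window leaves this tile out, and the highest 5% of tiles left out leads with higher means. On the values as deposited 18 were called, all lower, where medians of DNMT_KO shifted by -0.476 from D1 to D2.

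Timing was expressed as the share of the D0 to D2 change present at D1, from group means. D1 libraries were processed unlike the others, so day and processing cannot be told apart in these shares. Parental values at D1 or D2 chose the loci, so parental shares describe that choice. Shares of single D1 libraries hold the D0 and D2 means fixed, so their ranges leave out the spread at those days. No difference between shares was tested. Nrp2, S1pr1 and Galnt18 were the early leads, at 72.4 to 121% in every line after normalisation and 57.3 to 115% as deposited. Nrp2 stood at 93.1% in TET_WT, 88.5% in DNMT_WT, 77.2% in TET_KO and 120% in DNMT_KO. S1pr1 stood at 82.5%, 121%, 90.3% and 96.7% in the same order, and Galnt18 at 72.4%, 94.6%, 90.1% and 73.9%. The SD over the D1 libraries of a group ran from 6.06 to 55.9 percentage points at these 3 loci. The S1pr1 libraries of TET_WT, at 76.7 to 88.8%, did not overlap those of DNMT_WT, at 114 to 132%. The D1 change in DNMT_WT ranked 2 of all tested tiles and may have chosen this locus, so nothing is read from that gap.

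The other leads had no common timing. At Foxd3 the share was 16.3 ± 8.49% (SD, n = 3 D1 libraries) in TET_WT and 54.5 ± 0.83% in DNMT_WT, against 68.9 ± 20.8% in TET_KO and 72.2 ± 27.7% in DNMT_KO. Foxd3 in TET_WT had the lowest share of the leads, its libraries at 6.5 to 21.9% while those of TET_KO spanned 46.7 to 87.8%. That gap was not tested. Tnfrsf21 reached 89.1 ± 18.3% in TET_WT but 33.5 ± 8.5% in DNMT_WT, where the D2 level was lowest, and 59.6 ± 28.1% and 53.8 ± 33.8% in TET_KO and DNMT_KO. Nedd9 was past its D2 value at D1 in TET_WT (150 ± 36.1%) and stood at 54 ± 22.5% in DNMT_WT and 76.4 ± 18.1% in TET_KO. Its share in DNMT_KO has no meaning, since the change to D2 was -0.50 ± 0.46. As a set, the ratio of median changes at D1 and D2 was 65.6% and 66.4% in TET_WT and DNMT_WT and 60.9% and 68.3% in TET_KO and DNMT_KO, beside 59.4%, 68.6%, 67.7% and 68.2% for all 2378 closing tiles. On the values as deposited, where D1 medians are raised, shares were lower for all 24 pairs of lead and line, with Foxd3 in TET_WT at -10.7%.

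**Figure D4:**
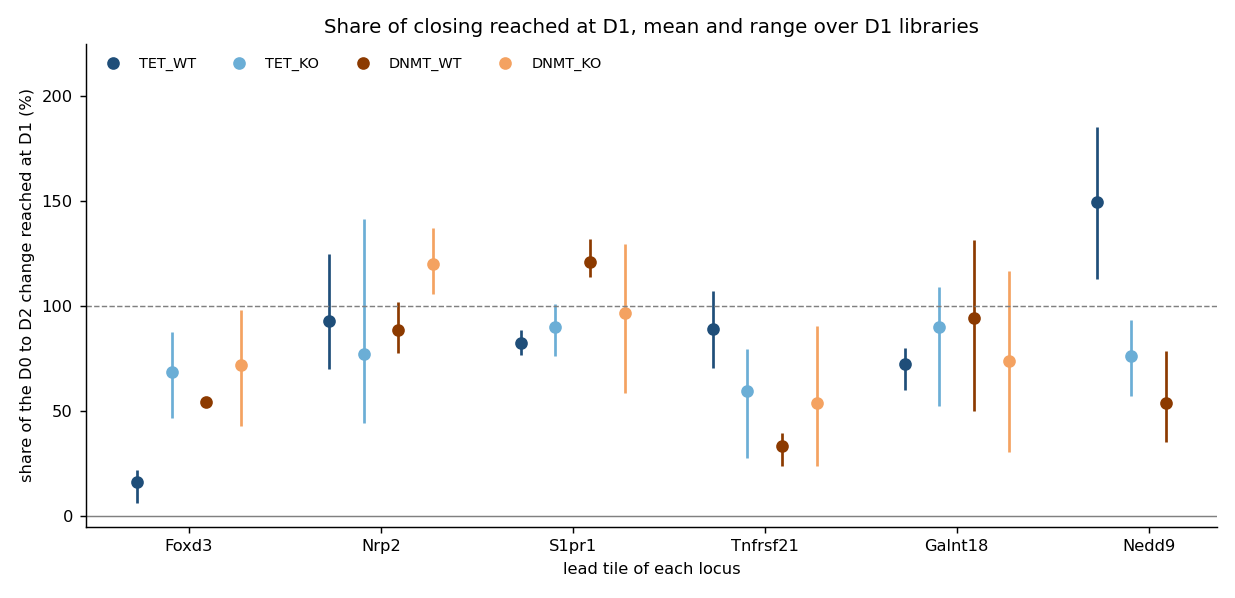
Share of the D0 to D2 change reached at D1 (vertical axis, percent) for the lead tile of each locus and line. Points are from group means, and lines span the D1 libraries. Nedd9 in DNMT_KO is left out because its D2 change was near 0. Foxd3 in TET_WT, at 16.3%, is the lowest point.

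Knockout and parent were compared at D1, where both were processed alike. The comparison uses parental D1 libraries, which may have chosen loci, so its counts are printed and nothing is read from them. Of 74 member tiles, 0 were called by limma between TET_KO and TET_WT (0.0925% of all tiles) and 0 between DNMT_KO and DNMT_WT (0.0106%), with 6 and 4 at an unadjusted p under 0.05 (9% and 8.6% of all tiles) and 0 by limma voom. As estimates, the Foxd3 lead of TET_KO was at -1.37 ± 0.42 against its parent and the Nedd9 lead at 1.88 ± 0.46. The parental D1 change ranked 2 of all tested tiles at Nedd9 in TET_WT and at S1pr1 in DNMT_WT. In DNMT_KO against DNMT_WT the values of the 6 leads ran from -0.87 ± 0.47 (Nrp2) to 0.66 ± 0.52 (Galnt18).

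**Figure D5:**
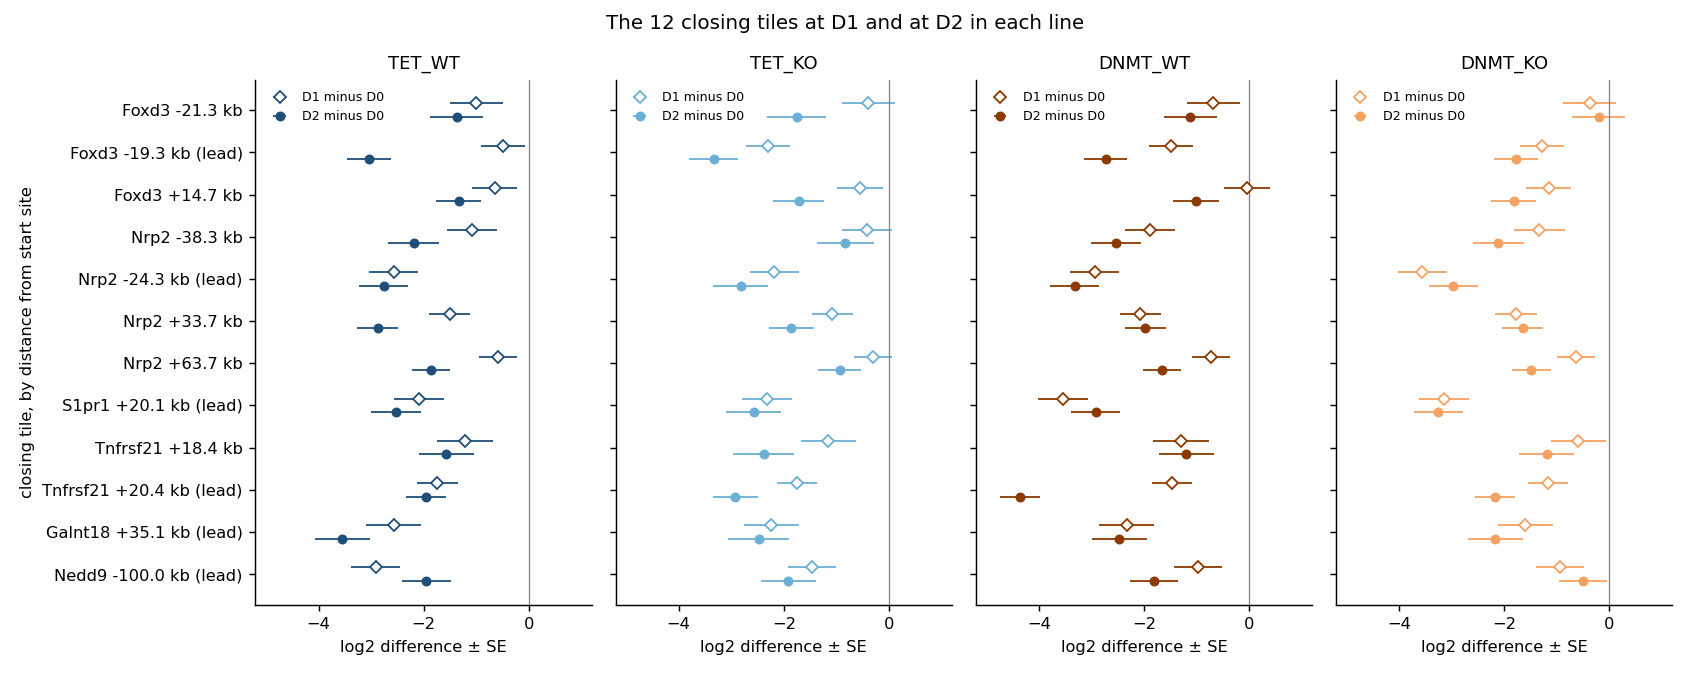
Log2 differences from D0 (horizontal axis, with SE) of the 12 closing tiles at D1 (open) and D2 (filled), one panel per line. Over the 4 lines the Nrp2 lead lies at -2.18 to -3.56 at D1 and -2.76 to -3.32 at D2, the Galnt18 lead of TET_WT is at -2.57 and -3.54, and the Foxd3 lead in TET_WT is at -0.50 at D1 and -3.05 at D2.

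Width was read from summed reads, over 3 libraries at D0 and 2 at D2 in TET_KO and 3 at each in DNMT_KO, with no correction for depth. In TET_KO the reads of the Foxd3 lead went from 141 at D0 to 12 at D2, those of the tile 2 kb downstream from 16 to 15 and of the tile 4 kb downstream from 38 to 41. Upstream of the Foxd3 lead, the tile 2 kb away went from 42 to 12 and the tile 4 kb away from 17 to 10. At Nrp2 the tile 2 kb downstream held 14 and 8 in TET_KO and 22 and 18 in DNMT_KO, and the tile 4 kb downstream 22 and 6, and 31 and 23. The upstream neighbour of the Tnfrsf21 lead went from 70 to 15 in TET_KO and from 32 to 15 in DNMT_KO. At S1pr1 the tile 4 kb below the lead in coordinate went from 34 to 7 and from 35 to 8 in TET_KO and DNMT_KO. The 513 untested tiles, with medians of 2 to 16 reads per library, held means of 0.628 to 0.773 RPM per tile over the 12 groups, and 2 of them near the Nrp2 lead had no read at D0 or D2 and at most 1 at D1.

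Over the 12 group means, the lead tiles correlated with each other at Pearson's r of 0.613 (Foxd3 with Nedd9) to 0.965 (Nrp2 with S1pr1). These are descriptions: the points share libraries and a common fall from D0, which chose the loci. By the same measure, the tested tiles outside the windows most like each lead had as nearest genes Vps13d and Zzef1 for Foxd3 (r of 0.965 for both), S1pr3 and Ppp2r2c for Nrp2 (0.982 and 0.974), Noct and Vegfa for S1pr1 (0.979 and 0.978), Frmd4a and Pip4k2c for Tnfrsf21 (0.974 and 0.961), Wif1 and Ffar2 for Galnt18 (0.993 and 0.988), and Mad1l1 and Cox7a2l for Nedd9 (0.939 and 0.935). An r of 0.9 or more was reached by 167 to 449 tested tiles for 5 of the leads and by 21 for Nedd9. The tile most like Nrp2, 6.62 kb from the receptor gene S1pr3, gave -1.62 in TET_KO and -1.52 in DNMT_KO from D0 to D2.

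Relatives of the members are given by their calls at D2, where 0.983% of all tiles were lower and 0.197% higher in TET_KO, and 2.02% and 0.492% in DNMT_KO. Nothing is read from counts this small. Tiles around 3 other Foxd genes numbered 22 with 0 called in TET_KO and 0 in DNMT_KO. Around 7 neuropilin partners, 3 of 163 were higher in TET_KO (2 at the co-receptor Nrp1 and 1 at its ligand Sema3c) and 3 lower in DNMT_KO (2 at Plxna2 and 1 at Nrp1). The sphingosine-1-phosphate pathway gave 0 of 185 in TET_KO, and 3 higher (2 at S1pr4 and 1 at the kinase Sphk2) and 2 lower (S1pr3 and S1pr5) in DNMT_KO. Among 6 death-domain receptors 1 of 124 tiles was lower in TET_KO (Tnfrsf10b) and 2 were higher in DNMT_KO (Tnfrsf25). Of 202 tiles at 10 other GalNAc transferases 3 were lower in each knockout, 1 at Galnt2 and 2 at Galnt7. The Cas family, with 3 relatives of Nedd9 and 99 tiles, had 0 called in TET_KO and 1 higher in DNMT_KO, at Bcar1. Median changes of these lists ran from -0.10 to 0.40, against 0.04 over all tested tiles.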

How the data were processed

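The authors deposited log2 RPKM values (reads scaled to tile length and a library total) of 2-kb tiles of GRCm38, per the file headers. Reads summed over tiles exceeded the total behind these values, at a ratio of 2.03 to 2.05 at D1. At D0 and D2 the ratio was 1.15 in the TET lines and 1.02 in the DNMT lines. The submitters' processing notes name Trim Galore 0.6.5, cutadapt 2.3 and Bowtie2 2.4.1 as tools. Duplicate handling and cut-site shifts are not given in the sources used here. Values were whole multiples of 1 read in at least 99.9985% of tiles per library, within a relative tolerance of 0.01 of the count. That tolerance is wide at high counts. Empty tiles stood at 0.9 read, and reads were recovered from these steps.

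Tested tiles lay on autosomes or X, had a read at D0 or D2, and were in the highest 10% by mean log2 RPKM or held an end of a protein-coding gene. They were quantile normalised and fitted with the trend option of limma 3.58.1 in R 4.3.3, each of 12 groups having its own mean, over 35 libraries (23 residual degrees of freedom), with 2-sided tests and Benjamini-Hochberg adjustment. A call is an adjusted p under 0.05. The fit was tested on simulated data. The main test stayed on log2 values, the deposited unit, and recovered reads were used in alternatives.

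Members, lists and tests were chosen with earlier results of these data known. Tiles are named as the lead and up to 3 further closing tiles per locus, the start tile, and member tiles called in a knockout (up to 3 per contrast). Tests were kept to knockout libraries and to D1, since parental contrasts chose the loci. Alternatives were a 20-kb window, deposited values, the highest 5% of tiles, no filter, limma voom on recovered reads, reads thinned to 1 depth, only the groups compared, a replicate block, and each library left out.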

Additional observations from a re-analysis of the deposited data

How the results depend on the processing

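Counts of called member tiles were recomputed under each alternative. For TET_KO, D2 against D0 (9 called), 5 were called among the highest 5% of tiles and 3 on thinned reads, and 4 to 10 with single libraries left out. The S1pr1, Galnt18 and Nedd9 leads and the Tnfrsf21 tile 18.4 kb from the start were not among the highest 5%, so were not tested there. For TET_KO, D1 against D0 (7), the count was 3 on the values as deposited, 2 on thinned reads, 4 with no filter and 3 to 7 with libraries left out. For DNMT_KO, D2 against D0 (10), it was 5 on thinned reads and 8 to 10 with libraries left out. For DNMT_KO, D1 against D0 (5), it was 3 by limma voom, 3 on thinned reads, 2 in a fit of only the groups compared, and 3 to 5 with libraries left out. For DNMT_KO, D2 against D1 (1), it was 18 as deposited, 0 with the 20-kb window, the highest 5% of tiles, limma voom, thinned reads, only the groups compared and no filter, and 0 to 1 with libraries left out. The tile called in the main fit lies outside the 20-kb window, so the 0 there is not a lost call. Its mean level was below those of the S1pr1 and Nedd9 leads, which the highest 5% of tiles left out. The 0 among the highest 5% is therefore not read as a lost call either. The TET_KO count of D2 against D1, the difference between the knockouts' exits and both D1 comparisons with a parent were 0 under each alternative. Thinning left 831507 reads in tested tiles per library.

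The replicate block gave the same counts as the fit without it (9, 7, 10, 5 and 1) but ended the call of Galnt18 in TET_KO at D2 (adjusted p = 0.0537). No pairing by the shared numbers was detected: same-numbered deviations correlated at -0.055 to 0.114. With few reads per tile, this check cannot exclude pairing. The direction of each called tile was the same in each alternative run. The calls at D2 of the Foxd3, Nrp2 and Tnfrsf21 leads in TET_KO held in each alternative counted. So did those of the Nrp2, S1pr1 and Tnfrsf21 leads and the Nrp2 tile at 62782001 in DNMT_KO. Counted were the alternatives that tested the tile, except the 20-kb window, with libraries left out from the compared groups only. The S1pr1 lead was not tested among the highest 5% of tiles. The lead tiles of the knockouts held 2 to 16 reads per library at D2.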
